A study of Mus musculus with 4 samples.

Results

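Insulin signaling is described here through 9 genes that carry the signal from the receptor to transcription, namely the insulin receptor Insr, the docking proteins Irs1 and Irs2, the phosphoinositide 3-kinase subunits Pik3r1 (regulatory p85α) and Pik3ca (catalytic p110α), the kinases Akt1 and Akt2, and the forkhead factors Foxo1 and Foxo3. They were taken by gene symbol from a table of 16051 genes, and each of the 9 symbols occurred in it once. The table gives mRNA sequencing of differentiated 3T3-L1 cells, a mouse preadipocyte line of embryonic fibroblast origin (strain NIH SWISS in the labels), in 2 libraries from cells given dimethyl sulfoxide (DMSO 1 and DMSO 2) and 2 from cells given 100 μM risperidone, a second-generation antipsychotic (risperidone 1 and risperidone 2), for 48 h. Both treatments followed differentiation with isobutylmethylxanthine, dexamethasone and insulin, so all 4 libraries come from cells that had been exposed to insulin. Each library was made from the pooled RNA of 3 cultures, and p-values therefore measure the spread between pools and not between single cultures.

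On binding insulin, the receptor phosphorylates tyrosines of the IRS proteins, which then recruit phosphoinositide 3-kinase through its regulatory subunit. The lipid made by the catalytic subunit brings Akt to the membrane, where it is activated, and Akt phosphorylates FoxO factors, which leave the nucleus bound to 14-3-3 proteins. In fasted cells nuclear FoxO activates genes that include Irs2 and Insr, while in fat cells Akt2 is the isoform best known for driving glucose uptake. All of these steps are set by phosphorylation, which mRNA levels do not measure.

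The libraries held 15883712 to 16374119 estimated counts on 13810 to 14657 genes. Of 12 adipocyte markers, 7 were below 1 FPKM (fragments scaled to transcript length and library size) in every library, among them Adipoq, Lep, Plin1, Cebpa and Slc2a4, while Lpl (191 to 250 FPKM over the 4 libraries), Fabp4 (59.5 to 169 FPKM), Pparg (11.4 to 12.8 FPKM), Lipe (3.17 to 7.88 FPKM) and Cd36 (1.04 to 1.66 FPKM) were expressed. The cells labeled as adipocytes thus held some fat cell transcripts and very little of others, adiponectin, leptin and perilipin 1 among them. The summed level of the 12 markers was 386 and 439 FPKM with DMSO and 269 and 280 FPKM with risperidone. That difference lay mainly in Fabp4, at 130.09 and 168.66 FPKM with DMSO and at 59.51 and 71.18 FPKM with risperidone, and in Lpl. Lpl was at 234.05 and 250.31 FPKM with DMSO and at 192.03 and 190.94 FPKM with risperidone. Lipe was lower in both risperidone libraries too. Pparg and Cd36 overlapped between treatments, so the fall was not shared by all expressed fat cell markers. The 8 preadipocyte or fibroblast markers summed to 1163 to 1182 FPKM with DMSO and 1489 to 1519 FPKM with risperidone. Within that sum Col1a1 was at 368 and 380 FPKM with DMSO and at 674 and 715 FPKM with risperidone, and Dlk1 and Thy1 were higher too, while Col3a1, Vim and Pdgfra were lower in both risperidone libraries. Risperidone 2 also held kidney tubule transcripts, which summed to 190 FPKM over 10 markers against 1.64 to 2.67 FPKM in the other libraries. The labels name an extraction from retina, and 5 of 7 retina markers that could be matched summed to at most 1.15 FPKM in any library. How far the fat cell markers and the kidney transcripts bear on the values that follow was not tested.

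Risperidone changed 6 of the 9 genes, or 66.7%, which is close to the background of 64.3% of all 10243 genes tested. Irs2 and Akt2 rose, Pik3r1, Pik3ca, Foxo1 and Foxo3 fell, and Insr, Irs1 and Akt1 did not pass the test. The 2 that rose were 22.2% of the members against 32.1% of all genes, and the 4 that fell were 44.4% against 32.2%. Only Irs2 changed by more than 1 on the log2 scale, a size that 6.52% of all genes tested reached. Tests are edgeR quasi-likelihood tests on the estimated counts scaled by TMM, with p-values adjusted over all genes tested, and errors of log2 fold changes are standard errors. In such bulk RNA a smaller share of cells expressing a gene cannot be told apart from less of its mRNA per cell.

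**Figure D1:**
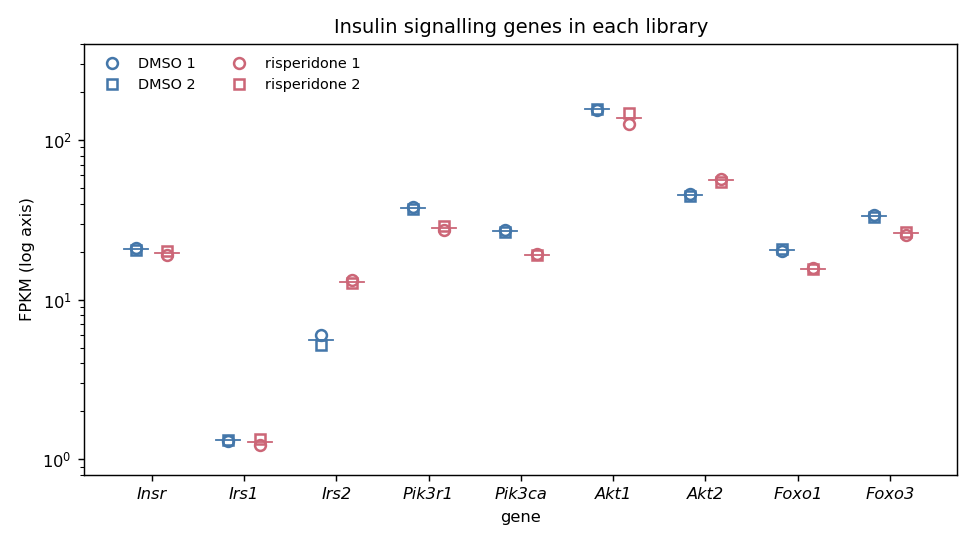
FPKM on a log axis for each of the 9 genes in each library, with circles for replicate 1, squares for replicate 2, blue for DMSO, red for risperidone and a line at the mean of each treatment. Akt1 is the most and Irs1 the least abundant under both treatments, and Irs2 is the gene whose treatments lie farthest apart.

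Among the 9, transcript levels per length spanned from Irs1, with a mean of 1.31 FPKM (SD 0.00707, n = 2) with DMSO, to Akt1, with 155.7 FPKM (SD 1.97, n = 2). With DMSO the order from lowest was Irs1, Irs2, Foxo1, Insr, Pik3ca, Foxo3, Pik3r1, Akt2 and Akt1, and the libraries of neighbors in this order overlapped only for Foxo1 and Insr. With risperidone Pik3ca moved below Insr, and these were the only neighbors that overlapped. The levels of these 9 genes thus kept their order except for Pik3ca and Insr.

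Irs2 (Gene ID 384783, GRCm38.p6 chr8:10984681-11008929, minus strand), a docking protein whose transcription is sensitive to FoxO and to fasting, showed the widest separation. It was at 5.97 and 5.22 FPKM with DMSO and at 13.2 and 12.75 FPKM with risperidone, from 379 and 322 counts and from 834 and 792 counts. Both risperidone libraries were thus above both DMSO libraries in FPKM, as was so for 32.4% of all genes tested. The log2 fold change was 1.31 ± 0.0709 (adjusted p = 1.23e-07), a 2.48-fold rise, and without risperidone 2 it was 1.34. Ordered by fold change, Irs2 was number 142 from the top of the genes tested. An antisense transcript, 9530052E02Rik, overlaps an exon of Irs2 in the annotation, and since no source states whether strand was used in counting, reads of the pair cannot be told apart.

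Irs1 (Gene ID 16367, chr1:82233105-82291439, minus strand), the docking protein best known from fat and muscle, was scarce. It was at 1.31 and 1.32 FPKM with DMSO and at 1.23 and 1.34 FPKM with risperidone, from 180 to 194 counts in each library. The treatments overlapped, and the log2 fold change of 0.06 ± 0.124 (adjusted p = 0.670) was not distinguishable from 0. A range of 2 standard errors to each side ran from -0.18 to 0.31, so changes within it would go undetected at this depth. The sign of the Irs1 value turned under 4 other scalings. Irs1 shares exon sequence with an antisense gene too, Gm9747.

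The promoter sequence of these paralogs is shown because one of them rose and the other did not, and because Irs2 is a FoxO target. Below are the 250 bases upstream of each annotated start from RefSeq (GRCm38.p6, 5′ to 3′ on the gene's strand), with the forkhead motif CAAAACA in capitals where it occurs, here each time as its reverse complement TGTTTTG. The Irs2 stretch is chr8:11008930-11009179 and the Irs1 stretch is chr1:82291440-82291689, both on the minus strand.
Irs2: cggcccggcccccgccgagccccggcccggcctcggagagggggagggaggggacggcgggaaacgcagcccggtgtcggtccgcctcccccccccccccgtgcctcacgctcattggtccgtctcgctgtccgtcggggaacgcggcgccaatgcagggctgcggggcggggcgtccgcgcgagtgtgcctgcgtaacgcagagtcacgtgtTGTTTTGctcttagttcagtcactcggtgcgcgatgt
Irs1: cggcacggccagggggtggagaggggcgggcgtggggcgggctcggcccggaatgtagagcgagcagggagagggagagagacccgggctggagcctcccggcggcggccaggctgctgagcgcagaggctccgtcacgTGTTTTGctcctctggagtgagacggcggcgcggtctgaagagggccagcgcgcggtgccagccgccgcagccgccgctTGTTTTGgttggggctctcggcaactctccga
The Irs2 stretch is 72.8% G or C and holds the motif once, with its first base 37 bases upstream of the start, and the Irs1 stretch is 72.4% G or C and holds it at 111 and at 32 bases upstream. The motif is therefore in the promoter of the paralog that rose and in that of the paralog that did not pass the test. Stretches were found for 8 of the 9 genes, all but Insr, and of their 13 stretches 3 held CAAAACA or GTAAACA on either strand, the remaining one being Akt1 (GTAAACA on the antisense strand, 161 bases upstream). Over all 32851 stretches of the same length, 5.56% held CAAAACA and 3.17% held GTAAACA, and over the 10639 stretches of tested genes the shares were 3.82% and 2.09%. The share that held either motif was not computed, so the 3 of 13 stretches cannot be set against these single shares. These matches describe letters and do not show that a factor binds there.

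Insr (Gene ID 16337, chr8:3150922-3279649, minus strand), the receptor tyrosine kinase itself, was at 21.17 and 20.34 FPKM with DMSO and at 18.98 and 20.05 FPKM with risperidone. The FPKM ranges did not overlap, but 82.2% of all genes tested had ranges that did not overlap, and 49.8% lay lower with risperidone. On the TMM scale the log2 fold change was 0.01 ± 0.0482 (adjusted p = 0.906). The outcome for Insr depended on scaling, since it was higher with offsets for gene length (0.16, adjusted p = 0.0033 by edgeR) and lower on TPM values (-0.23, adjusted p = 0.0172 by limma), where the median of all genes was itself -0.22. Igf1r, the related receptor for insulin-like growth factor 1, was at 5.76 to 6.36 FPKM with DMSO and 6.18 to 6.50 FPKM with risperidone and did not pass the test either (log2 fold change 0.13, adjusted p = 0.117), though with length offsets it was called higher (0.32, adjusted p = 0.000539 by edgeR).

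The 2 phosphoinositide 3-kinase subunits among the 9 genes both fell. Another catalytic subunit, Pik3cb, named after its values were seen, did not pass the test (log2 fold change -0.12, adjusted p = 0.355 by edgeR). Pik3r1 (Gene ID 18708, chr13:101680761-101768217, minus strand) was at 38.05 and 37.22 FPKM with DMSO and at 27.31 and 28.86 FPKM with risperidone, a log2 fold change of -0.33 ± 0.0471 (adjusted p = 0.000115). Pik3ca (Gene ID 18706, chr3:32397065-32466112, plus strand) was at 27.31 and 26.72 FPKM and at 19.25 and 19.04 FPKM, a log2 fold change of -0.40 ± 0.0455 (adjusted p = 2.05e-05), the lowest of the 9. Its estimated counts were 2961.7, 2809.63, 2074 and 2021.55, not whole in 3 of the 4 libraries, so part of its reads was divided with other sequences in the counting. For both subunits each risperidone library lay below each DMSO library, as was so for 49.8% of all genes tested. The ratio of Pik3r1 to Pik3ca in FPKM was 1.39 in both DMSO libraries and 1.42 and 1.52 with risperidone. With 2 libraries against 2, the exact two-sided permutation test cannot go below 0.333, which is the p it gave for this ratio.

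Akt2 rose and Akt1 did not pass the test. Akt2 (Gene ID 11652, chr7:27591552-27640826, plus strand) was at 45.68 and 44.41 FPKM with DMSO and at 56.91 and 54.97 FPKM with risperidone, a log2 fold change of 0.40 ± 0.0477 (adjusted p = 3.12e-05). Akt1 (Gene ID 11651, chr12:112653821-112674884, minus strand), the broadly expressed isoform tied to growth and survival, was at 154.28 and 157.07 FPKM with DMSO and at 126.33 and 146.8 FPKM with risperidone. The risperidone libraries disagreed on Akt1, with an SD of 14.5 FPKM against 1.97 FPKM with DMSO. Its log2 fold change was -0.09 ± 0.0621 (adjusted p = 0.229), and it was 0.0059 without risperidone 1 (adjusted p = 0.920) and -0.19 without risperidone 2 (adjusted p = 0.0025), so that the call on Akt1 rested on which risperidone library was used.

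The sum of Akt1 and Akt2 was 199.96 and 201.48 FPKM with DMSO and 183.24 and 201.77 FPKM with risperidone, and these ranges overlapped. Within that sum Akt2 made up 22.84% and 22.04% with DMSO and 31.06% and 27.24% with risperidone, so that its share was larger in both risperidone libraries than in both DMSO libraries. The ratio of Akt1 to Akt2 was 3.38 and 3.54 with DMSO and 2.22 and 2.67 with risperidone (exact permutation p = 0.333, the smallest possible).

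**Figure D2:**
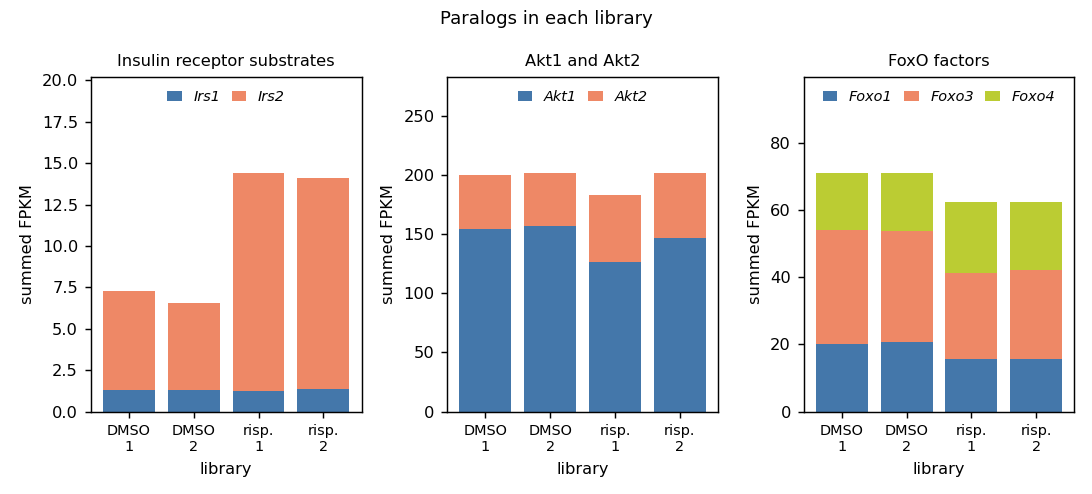
Summed FPKM of the insulin receptor substrates (left), Akt1 and Akt2 (middle) and FoxO factors (right) in each library, with 1 color per gene and axes that start at 0. Irs2 grows between the treatments while Irs1 stays thin, Akt2 takes a larger part of the sum of Akt1 and Akt2 with risperidone, and Foxo1 and Foxo3 shrink while Foxo4 grows.

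Foxo1 (Gene ID 56458, chr3:52268337-52350109, plus strand), a forkhead factor that restrains adipocyte differentiation, was at 20.13 and 20.65 FPKM with DMSO and at 15.7 and 15.55 FPKM with risperidone. Foxo3 (Gene ID 56484, chr10:42181845-42276695, minus strand), known for stress resistance and cell cycle arrest, was at 33.88 and 33.16 FPKM and at 25.43 and 26.73 FPKM. Neither overlapped between treatments, and 49.8% of all genes tested likewise lay wholly lower with risperidone in FPKM. The falls were -0.29 ± 0.0501 (adjusted p = 0.000439) and -0.26 ± 0.0465 (adjusted p = 0.000480) on the log2 scale. The exons of Foxo1 overlap an antisense gene, Gm20402, with the same limit as for Irs2. Foxo4, a smaller relative, rose, from 16.88 and 17.3 FPKM to 21.33 and 20.21 FPKM (log2 fold change 0.38 ± 0.0660, adjusted p = 0.000438), a call lost on TPM values. The sum of Foxo1, Foxo3 and Foxo4 went from 70.9 and 71.1 FPKM to 62.46 and 62.49 FPKM.

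Irs2 and Akt2 thus rose while Irs1 and Akt1 did not pass the test, and Foxo1 and Foxo3 both fell while Foxo4 rose. The ratio of Irs2 to Irs1 was 4.56 and 3.95 with DMSO and 10.7 and 9.51 with risperidone, 2.38-fold on average (exact permutation p = 0.333, the smallest possible). The log2 fold changes differed by 1.24 for Irs2 and Irs1, by 0.49 for Akt2 and Akt1 and by -0.02 for Foxo1 and Foxo3. With each library left out in turn these differences ranged from 1.15 to 1.35, from 0.36 to 0.62 and from -0.07 to 0.02. The ratio of Foxo3 to Foxo1 overlapped between treatments (1.61 to 1.68 with DMSO and 1.62 to 1.72 with risperidone, exact permutation p = 0.667).

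**Figure D3:**
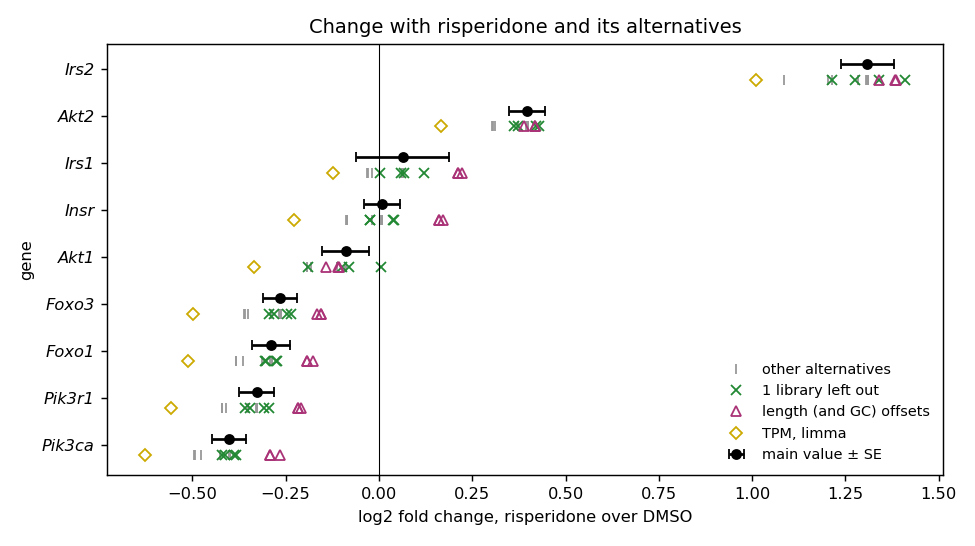
Log2 fold change of risperidone over DMSO for the 9 genes, with black points for the value from edgeR on TMM-scaled counts and its standard error, and colored marks for the alternatives. Some alternatives change more than 1 choice, such as limma on FPKM or TPM, which changes the unit, the scaling and the test together. Irs2 and Akt2 lie above 0 and Pik3ca, Pik3r1, Foxo1 and Foxo3 below 0 under every alternative drawn, while Insr, Irs1 and Akt1 lie on both sides.

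The wider pathway was described with a list of 76 genes, of which 74 were matched in the table and 60 averaged 1 FPKM or more and were tested. Without the 9 genes, 10 rose, 22 fell and 19 did not pass the test, so that 62.7% of 51 changed, near the background of 64.3%. Their median log2 fold change was -0.12, against 0.00 over all genes tested. The counts by role are descriptions of small lists without a test of their own, and they are to be read against the 32.1% of all genes that rose and the 32.2% that fell.

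Among 11 tested genes of the receptor and its docking proteins, only Irs2 rose, 3 fell and 7 did not pass the test, a called share of 36.4% against 64.3% of all genes. Those that fell were Shc1, an adapter that links the receptor to Ras (89.15 and 90.75 FPKM with DMSO, 60.03 and 62.68 FPKM with risperidone, log2 fold change -0.48), Cbl, a ubiquitin ligase and adapter (10.55 and 9.45 FPKM, then 5.66 and 6.88 FPKM, -0.58), and Sh2b1, a scaffold of the activated receptor (16.72 and 17.26 FPKM, then 11.51 and 12.46 FPKM, -0.41). The low called share and the single rise depended on scaling. With length offsets Insr (0.16), Igf1r (0.32) and Gab1 (0.20, adjusted p = 0.0328 by edgeR) were called higher too. Grb2 was then called lower (-0.17, adjusted p = 0.0307 by edgeR). Gab1 and Grb2 were named after their values were seen. Of the phosphoinositide 3-kinase genes tested, 4 of 6 fell and 1 rose, a called share of 83.3%. The largest fall was that of Pik3r3, another regulatory subunit, from 17.29 and 17.21 FPKM to 8.06 and 9.41 FPKM (log2 fold change -0.90 ± 0.0741, adjusted p = 1.84e-06). The regulatory subunit Pik3r2 fell by less (-0.28), so that the 3 class IA regulatory subunits tested all fell, and the class II enzyme Pik3c2a was called higher (0.20), a call lost under 6 of 17 alternatives.

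Of 8 tested kinases downstream, 3 rose, among them Akt2 and Sgk1, none fell and 5 did not pass the test, a called share of 37.5%. Sgk1, a kinase that also phosphorylates FoxO factors, was at 9.27 and 8.55 FPKM with DMSO and at 14.28 and 11.56 FPKM with risperidone (log2 fold change 0.63 ± 0.101, adjusted p = 0.000243). The attenuators of the pathway were divided, with 4 of 11 higher and 4 lower, a called share of 72.7%. Grb14, which binds the activated insulin receptor and blocks its kinase, rose most, from 4.57 and 3.93 FPKM to 11.25 and 10.23 FPKM (1.44 ± 0.129, adjusted p = 3.54e-06). Its relative Grb10 was at or below 0.05 FPKM in every library and was not tested.

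Among the attenuators that fell, Socs3, which directs IRS proteins to degradation, went from 4.69 and 4.63 FPKM to 2.46 and 2.29 FPKM (log2 fold change -0.87 ± 0.139, adjusted p = 0.000242). Phlpp2, a phosphatase of Akt, went from 4.85 and 5.52 FPKM to 3.03 and 3.39 FPKM (-0.57 ± 0.0779, adjusted p = 8.29e-05). Trib3, a pseudokinase that can bind Akt, was called higher (0.32 ± 0.0789, adjusted p = 0.00436), from 14.47 and 13.79 FPKM to 17.69 and 15.28 FPKM, and the call was lost without risperidone 1 and with limma on log2(FPKM + 1) or on TPM.

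Of 11 tested substrates and effectors of Akt, 7 fell, 1 rose and 3 did not pass the test, a called share of 72.7% against 64.3% of all genes. The falls included Pfkfb2, an activator of glycolysis (2.8 and 2.92 FPKM with DMSO, 1.41 and 2.01 FPKM with risperidone, log2 fold change -0.62), and Tbc1d4, which holds glucose transporter vesicles back until Akt acts on it (12.21 and 12.69 FPKM, then 8.53 and 9.57 FPKM, -0.45). They also included Tsc1, part of the brake on mTORC1 (-0.35), and Bad, a pro-apoptotic target of Akt (-0.33). The other falls, Akt1s1, Gsk3b and Tsc2, lost their call under 5, 4 and 2 of 17 alternatives. Rab10, the gene that rose, lost its call under 5 and turned on TPM values. Akt1s1, Gsk3b, Tsc2 and Rab10 were named after their values were seen. Slc2a4, the insulin-responsive glucose transporter GLUT4, was at 0 counts in 3 libraries and at 2 counts in risperidone 2, below the 3 counts that an observed 0 allows. Of the insulin-driven glucose transport step these cells thus held Tbc1d4 and Akt2 mRNA, while GLUT4 mRNA was not detectable above that limit.

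Of 13 tested FoxO factors and partners, 8 fell, 2 rose and 3 did not pass the test, a called share of 76.9% against 64.3% of all genes. The acetyltransferases Crebbp and Ep300, which act as FoxO coactivators and modify FoxO proteins, fell, Crebbp from 6.59 and 5.8 FPKM to 3.59 and 3.21 FPKM (log2 fold change -0.67) and Ep300 from 40.05 and 37.04 FPKM to 23.5 and 25.84 FPKM (-0.56). The 14-3-3 proteins Ywhag and Ywhaz, which hold phosphorylated FoxO in the cytoplasm, fell too, Ywhag from 112.3 and 114.22 FPKM to 77.33 and 74.98 FPKM (-0.48) and Ywhaz from 135.13 and 138.9 FPKM to 93.6 and 93.99 FPKM (-0.46). The 14-3-3 genes did not move as one, since Ywhab fell (-0.45), Ywhah was called higher (0.19, a call lost under 8 of 17 alternatives), and Ywhaq (-0.09) and Ywhae (0.11), the most abundant at 269.9 and 272.3 FPKM on average, did not pass the test. Without risperidone 2, Ywhae was called higher (0.15, adjusted p = 0.00754 by edgeR). These 4 were named after their values were seen.

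**Figure D4:**
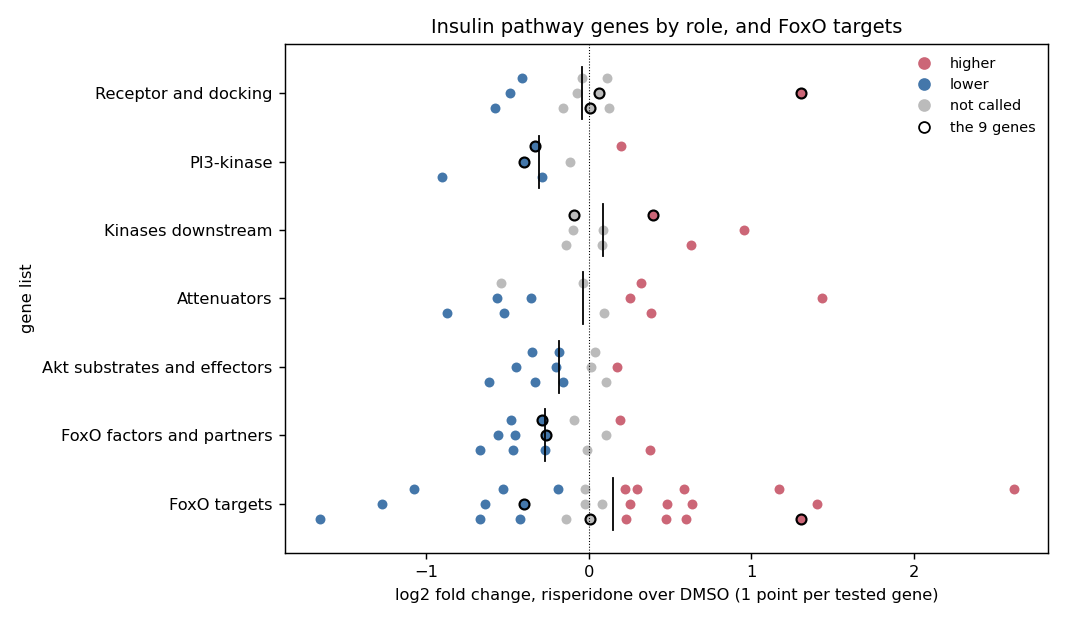
Log2 fold change of risperidone over DMSO for each tested gene of the insulin pathway list, by role, and of the FoxO target list, with red for higher, blue for lower and gray for not called, a black rim for the 9 genes and a vertical bar at the median of each list. Pck1 is left out of the points because its value of 5.32 rests on risperidone 2 alone. Phosphoinositide 3-kinase genes and FoxO factors and partners lie mostly below 0, and FoxO targets spread widely to both sides.

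The FoxO target list, 30 genes known to be activated or repressed by FoxO factors in various tissues, went both ways. Of 28 tested genes, 14 rose, 9 fell and 5 did not pass the test, a share of 82.1% against 64.3% of all genes. The list holds Irs2, Insr and Pik3ca, and without them 13 of 25 rose and 8 fell, with a median log2 fold change of 0.22. The median of the 28 was 0.15, but it was 0.02 without risperidone 2, -0.02 at a limit of 5 FPKM and -0.09 on TPM values, so no direction of the list as a whole is given. Of the genes that rose, Trim63, Klf15 and Pck1 averaged under 1 FPKM with DMSO and passed the limit for testing only through the risperidone libraries, where they were high. At a limit of 5 FPKM, 11 of 25 targets rose and 10 fell, a called share of 84% against 67.1% of all genes.

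Trim63, a muscle ubiquitin ligase of atrophy, was at 0.63 and 1.33 FPKM with DMSO and at 6.52 and 4.7 FPKM with risperidone, from 18, 37, 186 and 132 counts. Klf15, a factor of fasting metabolism, was at 0.72 and 0.91 FPKM and at 1.96 and 2.03 FPKM, from 26, 33, 72 and 75 counts. For both genes the values are given without a test because of how they passed the limit. Ccng2, an atypical cyclin linked to cell cycle arrest, fell from 68.43 and 72.99 FPKM to 20.51 and 21.49 FPKM (log2 fold change -1.65 ± 0.0548, adjusted p = 5.94e-09).

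Outside the rule for naming genes, and chosen after their values were seen, Txnip, an inhibitor of glucose uptake, rose from 951.58 and 943.63 FPKM to 2115.39 and 1884.2 FPKM (log2 fold change 1.17 ± 0.0608, adjusted p = 9.20e-08). Sesn3, a sestrin of stress responses, fell from 24.79 and 20.12 FPKM to 8.5 and 8.93 FPKM (-1.27 ± 0.0979, adjusted p = 1.20e-06), and Cdkn1a, the cell cycle inhibitor p21, from 62.42 and 67.92 FPKM to 29.11 and 28.73 FPKM (-1.07 ± 0.0622, adjusted p = 1.74e-07). The gluconeogenic target Pck1 was at 0.22, 0, 0.07 and 8.59 FPKM in DMSO 1, DMSO 2, risperidone 1 and risperidone 2. Its log2 fold change of 5.32 became -0.48 without risperidone 2 (adjusted p = 0.784), the library with kidney tubule transcripts. G6pc, the other gluconeogenic target, was below the limit for testing and lay at 3.73 FPKM in risperidone 2 and at most 0.09 FPKM elsewhere, and it too was chosen after its values were seen.

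The genes whose pattern over the 4 libraries was most like that of Irs2, by the Euclidean distance of centered log2 CPM over the 8052 genes that averaged 5 FPKM or more, were Mipol1 (distance 0.0310, 5.77 FPKM on average with DMSO and 13.4 FPKM with risperidone), Npcd (0.0488, 10.3 and 24.6 FPKM) and Ifit2 (0.0924, 3.76 and 9.07 FPKM). For Pik3ca they were Bax (0.0199, 60.4 and 42.9 FPKM), Lman2 (0.0202, 61.1 and 43.5 FPKM) and Hs2st1 (0.0239, 34.1 and 23.2 FPKM). With only 4 libraries such likeness describes the size of the change and the closeness of the replicates.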

How the data were processed

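mRNA was sequenced on MGISEQ-2000 from 2 DMSO and 2 risperidone libraries. The sample labels name untreated controls and embryo tissue, and the paper's description as DMSO was followed. The authors removed adaptors, poly-N and low-quality reads and computed the deposited FPKM on their DC.TOM platform. The deposited estimated counts are not normalized, and the TPM values, as deposited by the authors, sum to the same total in each library. The submitters' processing notes name Bowtie2, RSEM, DESeq2 and GRCm38.p6 without roles. Versions, annotation and strand setting are not given in the sources used here. The 6 columns that hold the authors' means over each treatment were not used.

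After rounding of the estimated counts, the 10243 of 16051 genes that averaged 1 FPKM or more were tested with edgeR 4.0.16 in R 4.3.3. TMM factors were 1.03, 1.03, 0.963 and 0.973 and the biological coefficient of variation 0.0468. The quasi-likelihood F-test was two-sided, with Benjamini-Hochberg adjustment, and calls were made under 0.05. Each standard error is |log2 fold change| over the root of its F statistic. A count of 0 allows up to 3 counts, or 0.183 to 0.189 CPM, which covers counting error only. Between replicates, Spearman's correlation was 0.988 with DMSO and 0.975 with risperidone. The edgeR fit with TMM, its versions with a replicate block or offsets, DESeq2 and limma were checked on simulated counts. The simulation changed far fewer genes than were called here, so it does not cover this setting. The permutation test and the remaining alternatives were not simulated. Alternatives used DESeq2 1.42.0, limma 3.58.1 (log2 of FPKM + 1, FPKM + 0.1 and TPM + 1), other size factors, filters, a replicate block and offsets for gene length or GC content.

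The 9 genes and both lists were chosen with earlier results of these data known. Named genes are the 9, per role up to 4 called genes other than the 9 with the largest change, Igf1r, Foxo4, Slc2a4, Socs3, Trib3 and Grb10, and the 3 genes most like Irs2 and Pik3ca. Coordinates and exon overlaps come from GRCm38.p6 with GENCODE M21, and promoters from RefSeq. Some genes that this rule names are not reported here, though they stay in the list counts. Protein sequences were not analysed here.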

Additional observations from a re-analysis of the deposited data

How the results depend on the processing

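Irs2, Akt2, Pik3r1, Pik3ca, Foxo1 and Foxo3 kept their direction and call under all 17 alternatives, with log2 fold changes of 1.01 to 1.41, 0.17 to 0.43, -0.56 to -0.21, -0.63 to -0.27, -0.51 to -0.18 and -0.50 to -0.16. Leaving out each library in turn, 6 to 7 of the 9 genes, 5391 to 6660 of all genes, 32 to 42 of the pathway list and 22 to 23 of the FoxO targets were called. A further limit of 1 on the size of the log2 fold change left 668 genes, 1 of the 9, 2 of the pathway list and 8 FoxO targets.

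The balance of directions moved with scaling. Over all genes 3287 were higher and 3303 lower with TMM, 2500 and 4092 with library size only, 2420 and 3975 with limma on log2(FPKM + 1), 2423 and 3971 on log2(FPKM + 0.1), and 1536 and 5292 on log2(TPM + 1), where the median of all genes was -0.22. On that TPM scale 2 of the 9 genes were higher and 6 lower, and the pathway list held 5 higher and 42 lower, against 12 and 26 with TMM and 18 and 27 with length offsets. The FoxO targets held 9 higher and 13 lower on TPM and 14 and 9 with TMM. Insr turned to -0.0861 with library size only, -0.0175 at 5 FPKM, -0.0849 and -0.0887 with limma on FPKM (pseudocounts 1 and 0.1) and -0.23 on TPM. With each library left out it ranged from -0.0249 to 0.0392 and turned without DMSO 2 and without risperidone 2. Irs1 turned to -0.0296 with library size only, -0.0192 and -0.0320 with limma on FPKM and -0.12 on TPM, and has no value at 5 FPKM. Akt1 turned to 0.0059 without risperidone 1, and it was called lower at -0.18 with library size only, -0.19 with limma on FPKM, -0.34 on TPM and -0.14 with length and GC offsets. The difference between Irs2 and Irs1 was 1.10 with limma on log2(FPKM + 1). For values that turned, the cause was not tested.

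The replicate numbers did not pair the libraries by any label, and deviations of same-numbered libraries correlated at -0.10. A replicate block called 3292 genes higher and 3321 lower, left the calls on the 9 genes as they were (2 higher, 4 lower), and called 40 of the pathway list and 24 FoxO targets. A block with length offsets called 7 of the 9 genes, as did length offsets alone. Crossed numbers, added after seeing the data as were the GC offsets, called 3474 genes higher and 3519 lower. DESeq2 called 2639 higher and 2653 lower. Among the 9 genes depth limits mainly Irs1, with under 200 counts per library. Klf15 had 26 to 75 counts, and Trim63 had 18 and 37 with DMSO.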
